A study of Mus musculus with 29 samples.

Results

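Whole-genome methyl-sequencing (WGMS) of mouse lung DNA was examined at 8 genes of the secretory cells of the airway epithelium, namely Scgb1a1, Scgb3a2, Muc5ac, Muc5b, Spdef, Clca1, Agr2 and Bpifb1. The deposited table splits genes into windows and names a gene for each window, and the 40 windows that carried one of these 8 names were taken, of 260686 windows in all. The value of a window is its percentage DNA methylation (%DNAm), the share of methylated calls at its CpG sites. Lungs came from Balb/c offspring described as 13-week-old females, in 4 groups that differed in 2 factors, maternal exposure and challenge. Dams received saline (Sham) or fine particulate matter (PM2.5, here PM) through the nose before mating, in gestation and until weaning, and the offspring were not dosed themselves, though milk may carry components of the particles. OVA offspring were sensitised to ovalbumin, an egg protein, with an aluminium hydroxide adjuvant and then breathed it as an aerosol, a standard model of allergic airways disease (AAD), and the others breathed saline. The Sham, Sham-OVA and PM groups had 7 mice each and PM-OVA had 8. The labels name the tissue "Lung (RML)" and the series calls it homogenate, so each value averages over all cells of the tissue. The labels do not tie libraries to dams, and p-values measure the spread between these libraries. A mean is given ± SD over the libraries of its group.

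Secretory cells keep the airway surface covered with fluid and mucus. Club cells make secretoglobins, small anti-inflammatory proteins of which Scgb1a1 is the best known marker, and goblet cells make the gel-forming mucins Muc5ac and Muc5b. In allergic lungs the cytokines IL-4 and IL-13 act through their receptor and Stat6 on airway epithelium, club cells take on goblet features, and the transcription factor Spdef drives that programme. Methylation of CpG sites near a gene's start is often lower in cell types that use the gene, but a whole-lung value holds the airway secretory cells as a minority, and fewer cells of a type cannot be told apart from a different methylation within those cells.

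All 29 libraries had a value in each of the 40 windows, and all 40 were tested. The depth behind each window is unknown here because the table holds percentages without read counts. Across the table, libraries had values in 258952 to 260135 windows and Pearson's r was 0.992 to 0.997 between libraries of the same group. Sham replicate 1 stood apart, with values in 1224 of 1230 windows of the Y chromosome against 29 to 46 in the other libraries, which goes against the description of the mice as female for that library. It was kept, and counts of called windows without it are given with the OVA comparison. PM-OVA replicates 7 and 8 carry "Rel" in their library names, a term the labels leave unexplained, and several of the results in PM offspring are also given without them.

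The 40 windows were 2327 to 11204 bp long and nearly all held 100 CpG cytosines over both strands. The exception was an Agr2 window with 101. Muc5b had 9 windows, Muc5ac, Clca1 and Bpifb1 had 7 each, Spdef had 5, Agr2 had 3, and Scgb1a1 and Scgb3a2 had 1 each. Windows are numbered here along the direction of transcription. In GENCODE M21 none overlapped a second gene, 38 held exonic bases and 7 held the start of their gene. For Scgb3a2 the gene start lay outside its window, which covered 87.4% of the gene.

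Promoter sequence is shown for 3 of the 8 members, Spdef, Agr2 and Bpifb1. It lets the few CpG sites next to the start be seen against the 100 CpG cytosines that a window averages. Muc5b, Muc5ac, Clca1 and Scgb1a1 were not matched to a reference promoter, and the promoter of Scgb3a2 was not printed. The sequences come from RefSeq on GRCm38.p6 and run 5′ to 3′ over the 250 bases before the RefSeq start on the gene's own strand. They lie at chr17:27728952-27729201 (Spdef, minus strand), chr12:35992675-35992924 (Agr2, plus strand) and chr2:154190568-154190817 (Bpifb1, plus strand). By the GENCODE starts used elsewhere here (27728955 for Spdef, 35992907 for Agr2), the last bases printed for Spdef and Agr2 lie within the gene. Capitals mark CpG sites.
Spdef: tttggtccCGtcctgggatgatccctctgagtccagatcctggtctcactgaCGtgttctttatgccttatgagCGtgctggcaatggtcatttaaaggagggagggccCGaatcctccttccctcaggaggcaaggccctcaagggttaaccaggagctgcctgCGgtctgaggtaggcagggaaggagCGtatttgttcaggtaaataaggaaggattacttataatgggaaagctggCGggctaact
Agr2: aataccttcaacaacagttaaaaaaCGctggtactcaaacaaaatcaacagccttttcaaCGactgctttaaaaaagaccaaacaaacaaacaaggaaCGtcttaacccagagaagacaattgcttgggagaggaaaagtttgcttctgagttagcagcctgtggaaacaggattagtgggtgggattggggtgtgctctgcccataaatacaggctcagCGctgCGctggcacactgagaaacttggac
Bpifb1: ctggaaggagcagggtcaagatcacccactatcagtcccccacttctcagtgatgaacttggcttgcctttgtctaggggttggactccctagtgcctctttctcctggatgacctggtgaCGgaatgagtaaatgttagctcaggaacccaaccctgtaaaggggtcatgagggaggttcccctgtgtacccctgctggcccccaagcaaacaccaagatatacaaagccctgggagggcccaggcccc
Spdef had 7 CpG sites in these 250 bases, Agr2 had 5 and Bpifb1 had 1, against a median of 6 over 32851 promoters of the same length. The letters CTCAAG, a core site of the airway factor Nkx2-1, were found in the Spdef sequence, on the printed strand, and 13.3% of the 32851 promoters hold them on either strand. Neither these letters in the other promoters, nor TTCNNNNGAA (Stat6), TGTTTAC (Foxa) or CCGGAT (Spdef) in any of the 3, were matched on either strand. Of all promoters 5.85%, 3.17% and 4.94% hold those letters, respectively.

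The level of methylation before challenge was compared first. In Sham lungs the 40 windows averaged from 54.9% to 86.7%, with a median of 78.2% against 76.8% over all windows of the table, and no window in any library was below 49.6%. Averaged over its windows, Spdef was lowest at 62.1% ± 0.82. Then came Agr2 at 69.7% ± 1.29, Scgb1a1 at 72.0% ± 1.07 and Bpifb1 at 75.1% ± 0.797. Scgb3a2 at 77.7% ± 1.48, Clca1 at 79.2% ± 0.324, Muc5ac at 80.1% ± 0.826 and Muc5b at 81.3% ± 0.651 followed. Sham libraries of Spdef and Agr2 did not overlap and lay 4.45 points apart. All other neighbours in this order overlapped, except Scgb1a1 and Bpifb1, which were 0.0169 points apart.

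**Figure D1:**
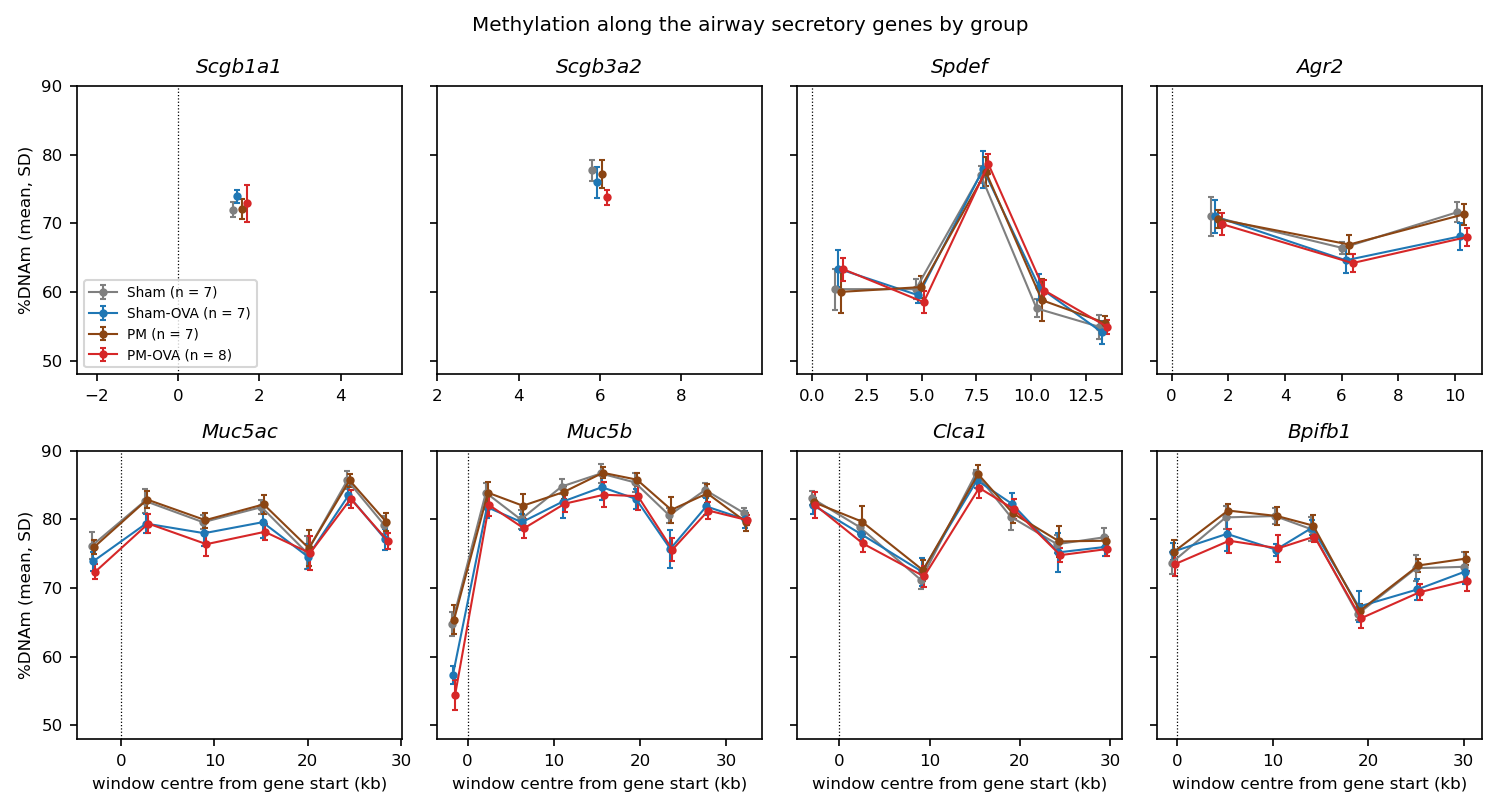
Mean %DNAm (± SD) of each window in the 4 groups, plotted at the distance of the window's centre from the gene start (dotted line, in kb); groups are drawn slightly apart, the %DNAm axis does not start at 0, and the Scgb3a2 start lies left of its panel. Spdef windows lie between 54.9% and 77.1% in Sham, window 1 of Muc5b is the lowest of its gene, and the OVA groups lie under the groups without OVA along most of Muc5ac and Muc5b.

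Within genes the level was uneven. Window 1 of Muc5b, which covers 3738 bp before the gene start and runs 450 bp past it, averaged 64.8% in Sham, whereas its other 8 windows averaged 80.0 to 86.7%. Spdef had the densest CpG sites (13.1 to 21.5 per kb against a median of 11.2 over the 40 windows), and its window 3 averaged 77.1% while the other 4 averaged 54.9 to 60.4%. As a description, over windows that share the same libraries, Spearman's rho between CpG density and Sham level was 0.0248 in the 40 windows and 0.385 in the 35 windows outside Spdef.

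OVA challenge was then compared with no challenge within each kind of offspring. The mucin genes had the most windows that fell. In Sham offspring 7 of 9 Muc5b windows and 5 of 7 Muc5ac windows fell, and in PM offspring 7 of 9 and 6 of 7, against 22.3% and 34.8% of all windows of the table. Libraries were also centred, by subtracting from each library its median deviation from the window means. Then 4 of 9 and 3 of 7 fell in Sham offspring and 5 of 9 and 6 of 7 in PM offspring, against 18.4% and 20.4% of all windows. The largest difference was at the start of Muc5b, where the change was -7.39 points after OVA in Sham-exposed and -11.0 points in PM-exposed offspring. Bpifb1 fell in 3 and 5 of its 7 windows, Agr2 in 1 and 2 of its 3, and Clca1 in 0 and 2 of its 7, in Sham and PM offspring respectively, so that the counts of Agr2 in Sham and of Clca1 were near or under the shares of all windows. Without Sham replicate 1, 5 windows of Muc5b and 2 of Bpifb1 fell in Sham offspring and 4 of Bpifb1 in PM offspring, and the other counts per gene did not move. Spdef was the only member in which a window rose, and Scgb1a1 passed the test in neither comparison, except that with centred libraries, and in some fits of fewer libraries, Scgb1a1 or a Clca1 window also rose in Sham offspring.

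A window was called changed when limma's moderated test, with Benjamini-Hochberg adjustment over 259167 tested windows, gave an adjusted p under 0.05. In Sham offspring 17 of the 40 windows were called (42.5%), against 35.6% of all windows. Of these 16 were lower (40.0%, against 22.3% of all windows) and 1 was higher, against 13.3% of all windows. In PM offspring 25 were called (62.5%, against 44.1%), of which 24 were lower (60.0%, against 34.8%) and 1 was higher, against 9.26% of all windows. The median difference over the 40 windows was -1.32 points for OVA in Sham and -2.32 points for OVA in PM, and over all windows it was -0.414 and -1.03 points. Both kinds of offspring were compared with their own controls, so the differences of these comparisons share no library. Their tests share the estimate of the spread, which came from 1 fit over all 29 libraries, so the calls are not independent.

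The mucins weighed most in those counts. Without Muc5b and Muc5ac, 4 of the other 24 windows were lower in Sham offspring (16.7%), which is under the 22.3% of all windows, and 11 were lower in PM offspring (45.8%, against 34.8%). The count of called windows among the 40 in Sham offspring depended on single libraries. It was 10 windows (25%) without Sham replicate 6 and 11 (27.5%) without Sham-OVA replicate 6, when 33% and 31% of all windows were called, and 12 (30%) without Sham replicate 2 or Sham-OVA replicate 5, when 33.3% and 33% were called, each time under the background. Without Sham replicate 1 it was 14 (35%), when 32.9% of all windows were called, and in a fit of Sham and Sham-OVA alone 13 (32.5%, against 31.3%). In PM offspring it was 24 without Sham replicate 1 (60%, against 44.4% of all windows) and 21 without PM-OVA replicates 7 and 8 (52.5%, against 39.7%). Within the mucins, the Sham count of Muc5b was 4 without Sham replicate 6, Sham-OVA replicate 3 or Sham-OVA replicate 5. That of Muc5ac was 3 without Sham replicate 2 or 6 or Sham-OVA replicate 5 or 6. With centred libraries, 10 member windows were lower and 4 higher in Sham offspring (35% called in all, when 36.9% of all windows were, with 18.4% lower and 18.5% higher), and 19 were lower and 2 higher in PM offspring, against 20.4% and 21.8%.

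**Figure D2:**
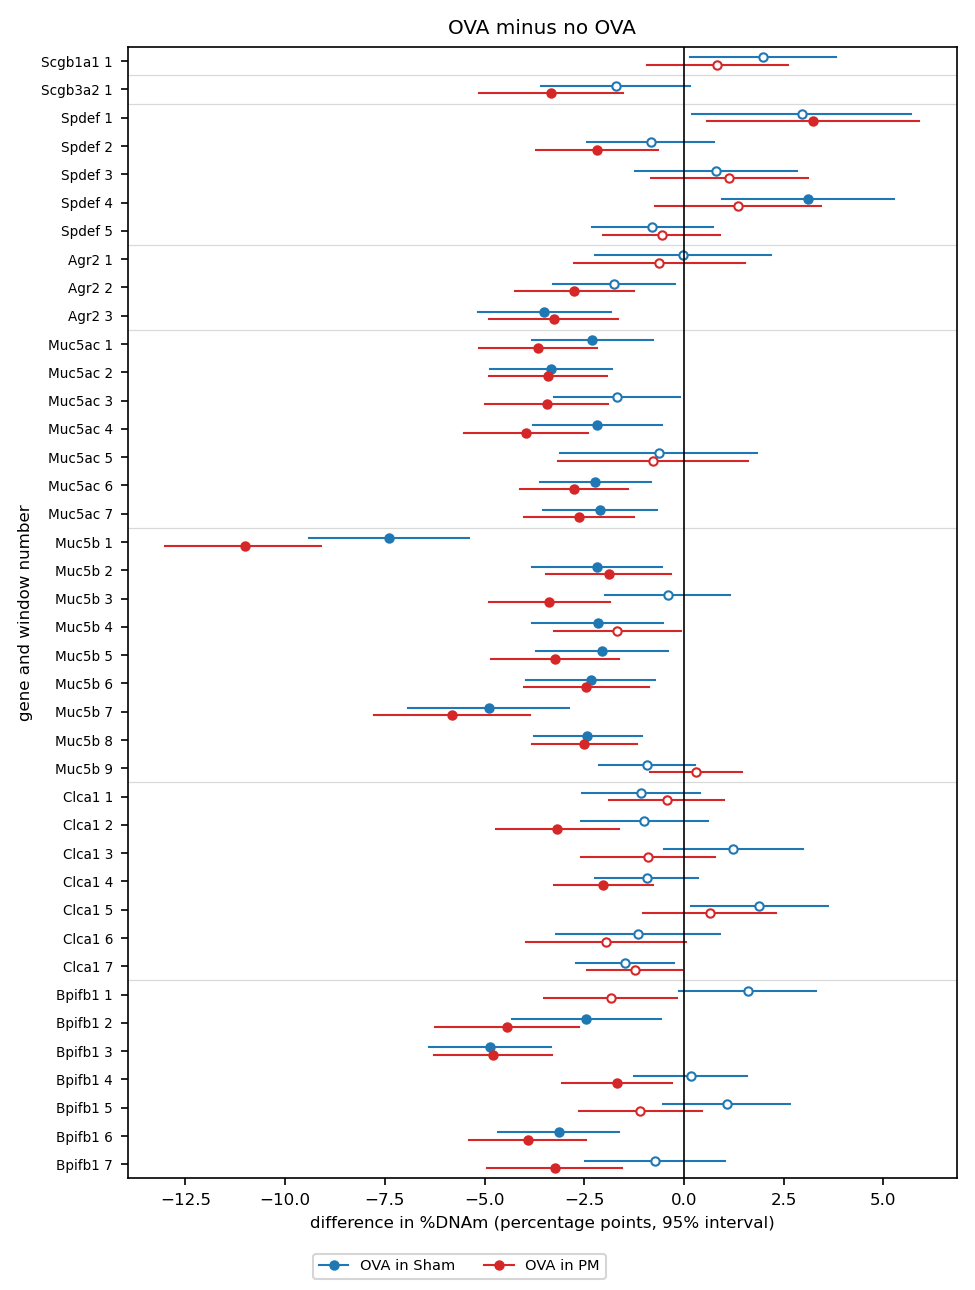
Difference in %DNAm (OVA minus no OVA, percentage points) for the 40 windows, in Sham (blue) and PM (red) offspring; bars are 95% intervals from the fit on untransformed percentages, and filled points have an adjusted p under 0.05. Most filled points lie left of 0, window 1 of Muc5b lies farthest left, and the filled points right of 0 are in Spdef, joined in Sham offspring by Scgb1a1 and a Clca1 window when libraries are centred.

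Window 1 of Muc5b (ENSMUSG00000066108) lies on chromosome 7 from 141835332 to 141839520 (GRCm38, plus strand) and holds the gene start, 2000 bp of promoter and 117 exonic bp. Muc5b is the mucin that the airway makes at rest and needs for clearance. Sham libraries ranged from 62.1% to 66.8% with a median of 65.0%, and Sham-OVA libraries from 55.9% to 59.5% with a median of 57.6%. PM libraries ranged from 60.7% to 66.6% with a median of 66.3%, and PM-OVA libraries from 49.6% to 56.8% with a median of 55.0%. Every OVA library was thus below every library without OVA. The means were 64.8% ± 1.73, 57.4% ± 1.31, 65.4% ± 2.11 and 54.4% ± 2.22, respectively. OVA changed the Sham mean by -7.39 points (95% interval -9.39 to -5.39; log2 ratio of methylated to unmethylated -0.44, SE 0.06; limma adjusted p = 3.22e-06). In PM offspring the difference was -11.0 points (95% interval -13.0 to -9.09; log2 ratio -0.65, SE 0.06; limma adjusted p = 4.36e-09).

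This window was the only member that reached the size set for a differentially methylated region (DMR), a called window with a difference of at least 10 points, and it did so in PM offspring. DMRs made up 0.775% of all windows for OVA in Sham and 0.584% for OVA in PM. A fall at least as large was seen in 2101 windows (0.811%) in Sham and in 574 windows (0.221%) in PM offspring. Among the 33550 tested windows that hold the start of their gene, the shares were 0.784% and 0.227%. The 2 lowest PM-OVA values, 49.6% and 53.0%, were those of replicates 7 and 8, and the other 6 ranged from 54.5% to 56.8%. Without these 2 libraries the difference was -9.997 points, just under the DMR limit, with an adjusted p of 4.36e-08 from limma.

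**Figure D3:**
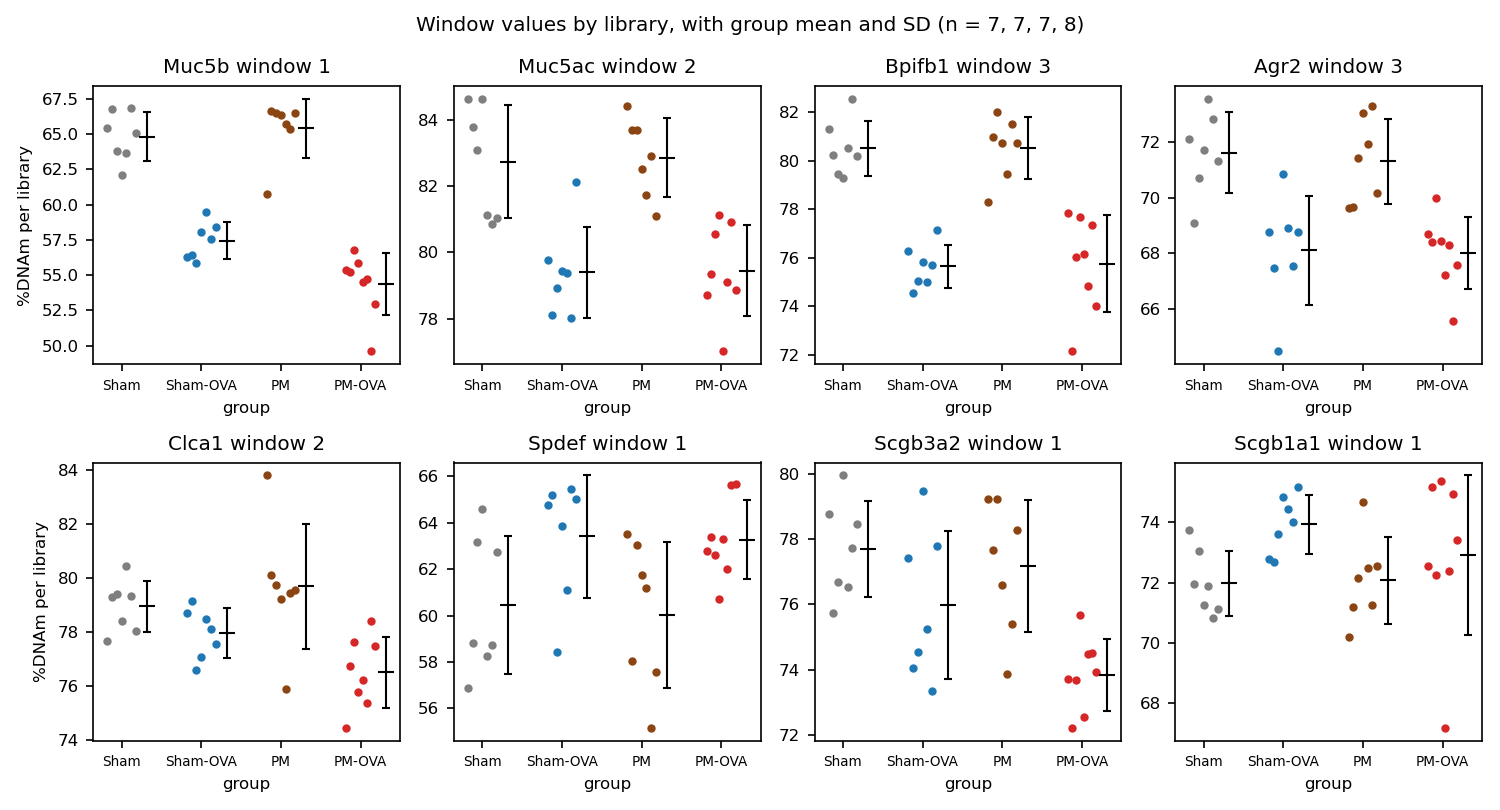
%DNAm of each library (points) with the group mean and SD (black) for the window of each gene with the smallest p for OVA over both kinds of offspring. Each panel has its own axis range, which does not start at 0. OVA libraries of Muc5b window 1 lie at 49.6 to 59.5% and libraries without OVA at 60.7 to 66.8%. In the Bpifb1 panel each OVA group also lies below its controls, while OVA groups overlap their controls in the panels of Muc5ac, Agr2, Clca1, Spdef, Scgb1a1 and Scgb3a2.

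The rest of Muc5b changed less, with called differences from -4.90 to -2.05 points in Sham offspring and from -5.82 to -1.89 points in PM offspring. The next largest difference of the gene was in window 7 (chromosome 7 from 141860590 to 141864700), which is exonic throughout and is singled out after its values were seen. It averaged 80.6% ± 1.09 in Sham and 75.7% ± 2.70 in Sham-OVA, against 81.4% ± 1.92 in PM and 75.6% ± 1.68 in PM-OVA (limma adjusted p = 0.000394 and 1.79e-05). Window 3 differed by -3.38 points in PM offspring (limma adjusted p = 0.000631), and its difference in Sham offspring was -0.406 points (adjusted p = 0.715). Window 9, at the end of the gene, was called in neither kind of offspring.

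Muc5ac (ENSMUSG00000037974), the mucin that allergic inflammation brings out, lies next to Muc5b on chromosome 7, with 19838 bp between the genes. Its window 2, within the gene from 141789446 to 141793943 with 1214 exonic bp, had the smallest p of the gene for the mean of both OVA differences. It ranged from 80.8% to 84.6% in Sham (median 83.1%) and from 78.0% to 82.1% in Sham-OVA (median 79.4%). In PM it ranged from 81.1% to 84.4% (median 82.9%), and in PM-OVA from 77.0% to 81.1% (median 79.2%). The groups overlapped in both kinds of offspring, through Sham-OVA replicate 7 at 82.1% and, by less than 0.1 points, through the highest PM-OVA library. The difference was -3.34 points in Sham offspring (95% interval -4.87 to -1.81, limma adjusted p = 0.00109) and -3.41 points in PM offspring (95% interval -4.89 to -1.92, limma adjusted p = 0.00051).

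The start of Muc5ac lay in window 1, which reaches 6372 bp upstream (chromosome 7 from 141782600 to 141789445). It averaged 76.2% ± 1.97 in Sham libraries and 73.9% ± 1.39 in Sham-OVA libraries (limma adjusted p = 0.0212), a call that was lost without Sham replicate 2 (adjusted p = 0.0659), Sham replicate 6 (0.0527) or Sham-OVA replicate 6 (0.0575), with centred libraries (0.0548) and in a fit of Sham and Sham-OVA alone (0.0694). The PM libraries averaged 76.0% ± 0.98 and the PM-OVA libraries 72.4% ± 1.12, without overlap between the groups (limma adjusted p = 0.000396). Called differences along Muc5ac spanned -3.34 to -2.11 points for Sham and -3.96 to -2.63 points for PM offspring. Window 5, which holds 4058 exonic bp in 5148 bp, was the only window of the gene called in neither, at -0.631 and -0.780 points.

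Bpifb1 (ENSMUSG00000027485) encodes a secreted protein of the large airways. Its window 3 (chromosome 2 from 154199124 to 154203302, with 197 exonic bp) ranged from 79.3% to 82.6% in Sham (median 80.3%) and from 74.6% to 77.2% in Sham-OVA (median 75.7%). PM libraries ranged from 78.3% to 82.0% (median 80.7%) and PM-OVA libraries from 72.1% to 77.9% (median 76.1%). OVA libraries were below the libraries without OVA in both kinds of offspring. The differences were -4.87 points (95% interval -6.39 to -3.34, limma adjusted p = 1.39e-05) and -4.78 points (95% interval -6.26 to -3.30, limma adjusted p = 8.35e-06). At the gene start (window 1, chromosome 2 from 154187971 to 154192822, the window of the promoter printed above) Sham averaged 73.7% ± 1.63, Sham-OVA 75.3% ± 1.24, PM 75.3% ± 1.72 and PM-OVA 73.5% ± 1.76. Those differences, 1.60 and -1.84 points, passed the test in neither kind of offspring (limma adjusted p = 0.154 and 0.0744). The difference in PM offspring passed without PM replicate 5 (0.034), PM replicate 7 (0.042) or PM-OVA replicate 5 (0.0326). Window 4 was called in PM offspring at the edge of the threshold (limma adjusted p = 0.049). With centred libraries, or with the other estimate of the spread, 4 Bpifb1 windows fell in PM offspring in place of 5.

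Agr2 (ENSMUSG00000020581) is an endoplasmic reticulum protein needed to fold mucins. Its last window, window 3 (chromosome 12 from 36001160 to 36005170, with 320 exonic bp), had a median of 71.7% in Sham (69.1 to 73.5%) and of 68.8% in Sham-OVA (64.5 to 70.8%). The medians in PM and PM-OVA were 71.4% (69.6 to 73.3%) and 68.3% (65.6 to 70.0%). Although the ranges overlapped, all 7 Sham-OVA and all 8 PM-OVA libraries were below the mean of their controls, and the differences were -3.50 points (limma adjusted p = 0.00226) and -3.27 points (limma adjusted p = 0.00228). Window 1, with the gene start and the promoter printed above (chromosome 12 from 35992164 to 35996813), had a mean of 71.0% ± 2.88 in Sham and 71.0% ± 2.38 in Sham-OVA. In PM and PM-OVA it was 70.6% ± 1.26 and 69.9% ± 1.56, and the 95% intervals of the differences were -2.22 to 2.19 and -2.75 to 1.52 points.

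Clca1 (ENSMUSG00000028255), a secreted product of goblet cells that IL-13 induces, changed little in Sham offspring, where 0 of 7 windows were called by limma, with 2 at an unadjusted p under 0.05. In PM offspring windows 2 and 4 fell. Window 2 (chromosome 3 from 145028062 to 145032635, with 52 exonic bp) ranged from 75.9% to 83.8% in PM (median 79.6%) and from 74.4% to 78.4% in PM-OVA (median 76.5%), a difference of -3.18 points (95% interval -4.72 to -1.64, limma adjusted p = 0.0016). The same window averaged 78.9% ± 0.955 in Sham and 77.9% ± 0.925 in Sham-OVA, with an adjusted p of 0.353. The start window (window 1, chromosome 3 from 145032640 to 145038646) averaged 83.1% ± 1.04 (Sham), 82.1% ± 1.35 (Sham-OVA), 82.5% ± 0.667 (PM) and 82.1% ± 1.95 (PM-OVA), and was called in neither comparison.

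Spdef (ENSMUSG00000024215), the goblet cell transcription factor, moved the other way at its start. Window 1 (chromosome 17 from 27725788 to 27729614, minus strand, with the start, 403 exonic bp that are all untranslated and the promoter printed above) ranged from 56.9% to 64.6% in Sham (median 58.8%) and from 58.5% to 65.5% in Sham-OVA (median 64.8%). PM libraries ranged from 55.2% to 63.5% (median 61.2%) and PM-OVA libraries from 60.7% to 65.7% (median 63.0%), so the groups overlapped in both comparisons and controls spread widely. The mean rose by 3.24 points in PM offspring (95% interval 0.58 to 5.90, limma adjusted p = 0.0492). That call was at the edge of the threshold. It was lost without either or both of PM-OVA replicates 7 and 8 (adjusted p = 0.18 without both) and in 17 of the 29 fits without 1 library, and over all 29 the difference was 2.43 to 3.82 points. The difference in Sham offspring was 2.96 points with a limma adjusted p of 0.0913, and passed with centred libraries (0.0441), without Sham replicate 4 (0.0401) and without Sham-OVA replicate 3 (0.0303). Of the other windows, window 4 rose in Sham offspring by 3.11 points (limma adjusted p = 0.0282) and window 2 fell by 2.19 points in PM offspring (limma adjusted p = 0.0318), so that Spdef had 1 call upward in Sham and 1 in each direction in PM offspring. The call in Sham offspring was lost without Sham replicate 5, 6 or 7 or Sham-OVA replicate 1, 2 or 6, and that of window 2 without PM replicate 2, 4 or 7 or PM-OVA replicate 2 or 8, without both PM-OVA replicates 7 and 8, and in a fit of PM and PM-OVA alone. With centred libraries both of its calls in each comparison were upward.

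The club cell secretoglobins were each read by 1 long window with sparse CpG sites. The Scgb1a1 window (ENSMUSG00000024653, chromosome 19 from 9082806 to 9090066, 6.89 CpG sites per kb) spans the whole gene and its start. Its libraries ranged from 70.8% to 73.8% in Sham, 72.7% to 75.2% in Sham-OVA, 70.2% to 74.7% in PM and 67.2% to 75.4% in PM-OVA, and the groups overlapped. All 7 Sham-OVA libraries were above the Sham mean, with a difference of 1.97 points (95% interval 0.139 to 3.80) that did not pass (limma adjusted p = 0.0917). It passed with centred libraries (0.0423), in a fit of Sham and Sham-OVA alone (0.0389) and without PM-OVA replicate 5 (0.0329). In PM offspring the difference was 0.839 points (limma adjusted p = 0.441). The Scgb3a2 window (ENSMUSG00000038791, chromosome 18 from 43764680 to 43775883, 4.46 CpG sites per kb) reaches well past the gene's end. PM libraries averaged 77.2% ± 2.02 and PM-OVA libraries 73.8% ± 1.11, a difference of -3.33 points (limma adjusted p = 0.00424), whereas the Sham mean was 77.7% ± 1.48 and the Sham-OVA mean 76.0% ± 2.27 (limma adjusted p = 0.157, and 0.048 without Sham-OVA replicate 4).

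Separation of libraries was counted as well. The OVA libraries lay below all libraries of their controls in 3 of the 40 windows in Sham offspring (7.5%, against 5.43% of all windows), namely windows 1 and 7 of Muc5b and window 3 of Bpifb1. In PM offspring this held for 6 windows (15.0%, against 10.3% of all windows). They were windows 1 and 5 of Muc5b, windows 1 and 4 of Muc5ac and windows 3 and 6 of Bpifb1. OVA libraries lay above all their controls in 0 of the 40 windows in both kinds of offspring, and in 3.15% and 1.65% of all windows.

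Gene starts were compared with gene bodies. Of the 7 start windows, that of Muc5b fell in both kinds of offspring, that of Muc5ac fell in PM offspring and, with the call that several settings lost, in Sham offspring, that of Spdef rose in PM offspring with the call at the edge of the threshold, and those of Agr2, Bpifb1, Clca1 and Scgb1a1 were called in neither. Over all 33550 start windows 28.7% were called for OVA in Sham and 38.0% for OVA in PM. Falls made up 19.3% and 31.5%. The windows with the smallest p of Agr2, Bpifb1, Clca1 and Muc5ac for the mean OVA difference lay past the gene start, and that of Agr2 also reached past the gene's end.

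The maternal exposure was compared next, in lungs without and with OVA. None of the 40 windows was called by limma for PM against Sham without OVA, and none with OVA, as for all windows of the table (0% called in both). An unadjusted p under 0.05 was found for 2 of the 40 windows without OVA and for 3 with OVA (5.00% and 7.50%, against 5.79% and 5.96% of all windows). Without OVA the smallest p was that of Muc5b window 3 (chromosome 7 from 141843212 to 141847615, with 1070 exonic bp). It was 80.0% ± 1.42 in Sham and 82.0% ± 1.76 in PM, a difference of 2.01 points (95% interval 0.439 to 3.57, limma adjusted p = 0.829), and 7 of 7 PM libraries were above the Sham mean.

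With OVA the smallest p was that of Muc5b window 1. Its mean was 57.4% in Sham-OVA and 54.4% in PM-OVA, a difference of -3.06 points (95% interval -4.99 to -1.12, limma adjusted p = 0.816), and 8 of 8 PM-OVA libraries were below the Sham-OVA mean, although the groups overlapped. The difference was -2.03 points without PM-OVA replicates 7 and 8. Over the 40 windows the 95% intervals of the maternal differences lay within -3.16 and 3.57 points without OVA and within -4.99 and 2.85 points with OVA.

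The test of whether OVA acted differently in PM and Sham offspring, the interaction, gave 0 called windows among the 40 by limma, with 3 at an unadjusted p under 0.05 (7.50%), against 0% called and 7.40% at that p over all windows. The smallest p was that of Bpifb1 window 1, at the gene start, where the OVA difference was 1.60 points in Sham offspring and -1.84 points in PM offspring. The difference between them was -3.44 points (95% interval -5.83 to -1.05, limma adjusted p = 0.58). For Muc5b window 1 it was -3.64 points (95% interval -6.42 to -0.858, limma adjusted p = 0.623), and -2.61 points without PM-OVA replicates 7 and 8. For Muc5b window 3 it was -2.97 points (limma adjusted p = 0.589). The larger fall at the start of Muc5b in PM offspring, and its DMR call there alone, were thus not shown to differ from Sham offspring. Over the 40 windows the median interaction was -0.954 points, and it was -0.586 points over all windows.

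**Figure D4:**
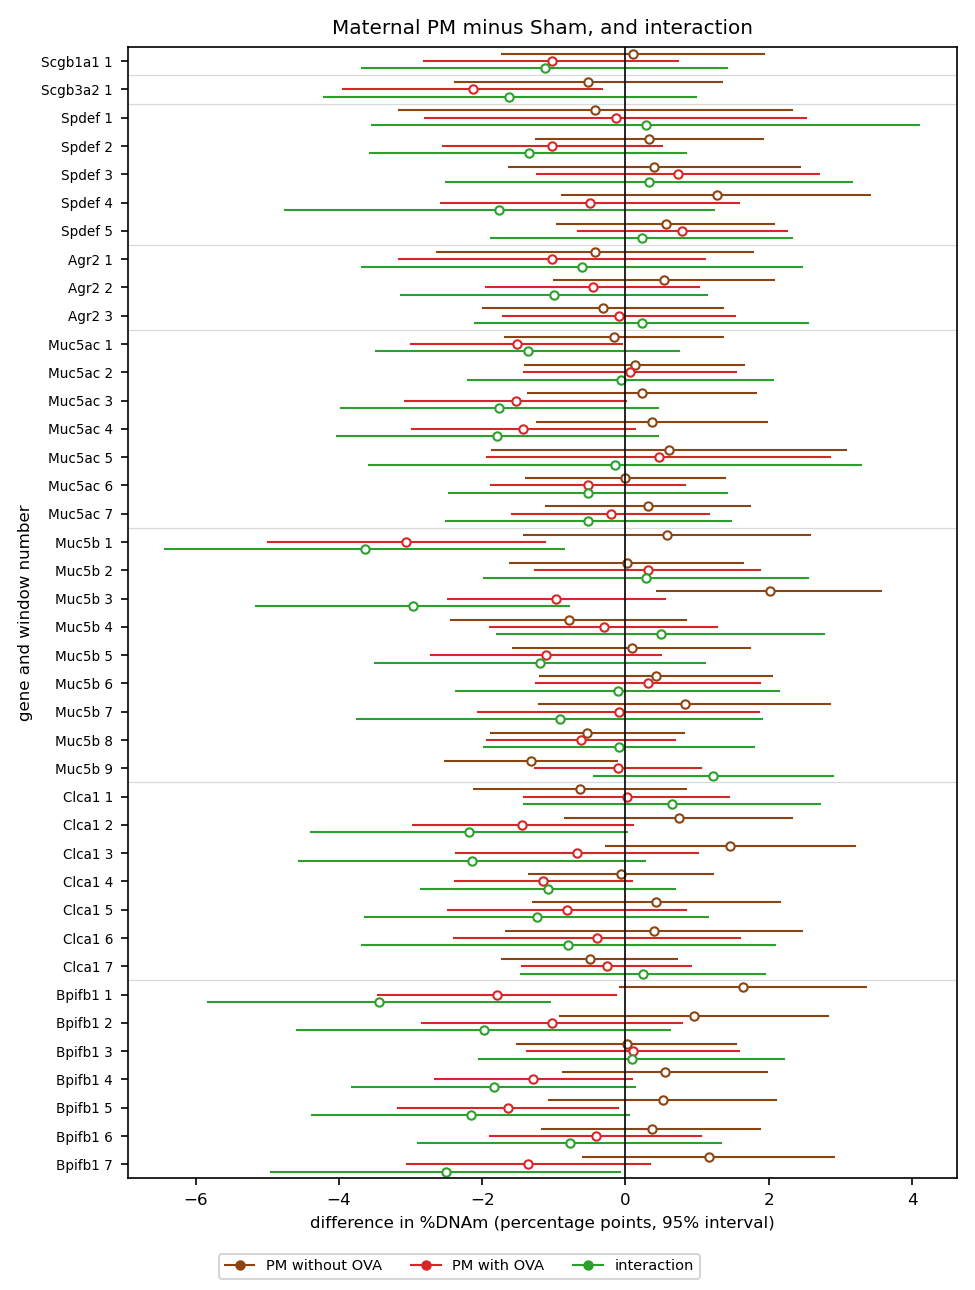
Differences in %DNAm (percentage points, with 95% intervals from the fit on untransformed percentages) for PM minus Sham without OVA (brown), PM minus Sham with OVA (red) and the interaction (green) in the 40 windows. All points are open, since none had an adjusted p under 0.05, and the intervals that leave out 0 include those of windows 1 and 3 of Muc5b and window 1 of Bpifb1.

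Other genes of airway secretory cells and of the mucus programme were examined as a list of 38 genes (club cell genes, IL-4 and IL-13 signalling, transcription factors, other mucins and secreted products). Sox2 had no window, and the other 37 genes had 261 windows. For OVA in Sham limma called 78 windows (29.9%), of which 46 rose (17.6%, against 13.3% of all windows) and 32 fell (12.3%, against 22.3%). For OVA in PM it called 107 (41.0%), of which 30 rose (11.5%, against 9.26%) and 77 fell (29.5%, against 34.8%). In total these shares are under the 35.6% and 44.1% of all windows, while those of rises are above. No window was a DMR in either comparison, and an unadjusted p under 0.05 was found for 102 and 137 windows (39.1% and 52.5%, against 45% and 51.4% of all windows). The median differences were -0.041 and -1.03 points.

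The largest differences of that list were in Il4ra and Stat6, which relay IL-4 and IL-13 signals, and in Foxa3, Notch2 and Pigr. A window without exonic bases in Il4ra, the shared receptor chain of IL-4 and IL-13 (ENSMUSG00000030748, chromosome 7 from 125557276 to 125561460), averaged 42.2% ± 2.89 in Sham against 51.4% ± 2.36 in Sham-OVA, and 41.7% ± 1.76 in PM against 50.0% ± 1.77 in PM-OVA (limma adjusted p = 1.26e-06 and 2.14e-06). A window of Stat6, its transcription factor (ENSMUSG00000002147, chromosome 10 from 127652784 to 127655325, with 461 exonic bp), rose by 9.08 and 8.15 points (limma adjusted p = 1.15e-06 and 1.57e-06). Windows without exonic bases rose in Foxa3, a goblet cell factor (ENSMUSG00000040891, chromosome 7 from 19020041 to 19022976), by 7.32 and 6.52 points, and in the receptor Notch2 (ENSMUSG00000027878, chromosome 3 from 98038285 to 98041460), by 8.51 and 5.29 points. Pigr, which carries IgA across epithelium (ENSMUSG00000026417, chromosome 1 from 130848758 to 130854361, with 1768 exonic bp), averaged 84.4% ± 0.982 in Sham against 78.0% ± 0.796 in Sham-OVA, and 84.3% ± 1.43 in PM against 78.4% ± 1.46 in PM-OVA (limma adjusted p = 5.84e-08 and 9.25e-08). Il4ra, Stat6 and Notch2 are used by leukocytes as well as by epithelium.

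Leukocyte genes moved with the same comparisons. Over the 77 windows of 16 leukocyte markers the mean %DNAm per library ranged from 71.0 to 72.3% in Sham, 68.5 to 70.0% in Sham-OVA, 71.6 to 72.5% in PM and 68.3 to 69.2% in PM-OVA, so that OVA and control libraries did not overlap. Over all windows of the table it ranged from 68.6 to 69.6%, 67.8 to 69.5%, 68.7 to 70.2% and 67.9 to 69%, and the groups overlapped. Of these windows 52 were called for OVA in Sham (34 lower and 18 higher) and 49 for OVA in PM (38 lower and 11 higher), which is 67.5% and 63.6% of them against 35.6% and 44.1% of all windows, with median differences of -1.29 and -1.83 points. Over the 40 secretory windows the mean per library ranged from 75.4 to 76.5% in Sham, 73.6 to 75.8% in Sham-OVA, 75.6 to 77% in PM and 73.5 to 74.8% in PM-OVA. The part of leukocyte content in the differences at the secretory genes was not tested, and expression was not analysed here.

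The windows whose values ran most closely with those of Muc5b window 1 across the 29 libraries, as a description, were those of Chn2 (Pearson's r 0.943), Abcc1 (0.943), Mmp10 (0.942), Gm38093 (0.939) and Ntrk2 (0.939). The libraries fall into OVA and control sets, and any window that OVA lowered strongly will score high. The Mmp10 window (ENSMUSG00000047562, chromosome 9 from 7498254 to 7503895) also holds its gene's start and went from 82.8% in Sham to 77.4% in Sham-OVA and from 83.3% in PM to 76.9% in PM-OVA. The Chn2 window (ENSMUSG00000004633, chromosome 6 from 54115608 to 54120431), which lies in the gene and holds no exonic bases, went from 63.5% to 52.9% and from 62.8% to 51.4%.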

How the data were processed

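Lung DNA of 29 mice was enzymatically converted and sequenced by the authors, who trimmed reads with Trim Galore, mapped and called them with DRAGEN on GRCm38 and averaged calls per window in SeqMonk. The deposited values are percent methylation per window and library, without counts, normalisation between libraries or pooling. The authors set a minimum of informative CpGs per window and retained windows over Ensembl genes. Windows with at least 3 values in each group (259167) were tested with limma 3.58.1 (R 4.3.3) on the log2 ratio of methylated to unmethylated percentage, each plus 1 point, in 1 fit over 4 groups, 2-sided, with Benjamini-Hochberg adjustment over all windows. Intervals in points are 95% intervals of the same fit on untransformed percentages. The study's own test of counts was not repeated. Scripts were tested on simulated data. Annotation was GENCODE M21, read with Python 3.11.15 and pysam 0.24.0. Groups and replicate numbers came from the labels. Windows described singly were, for each gene, that of the start and that with the smallest p for the mean OVA difference, any DMR, and the smallest p of contrasts without calls. In the secretory list they were, for each OVA comparison, the 5 largest called differences (1 window per gene). The members, lists and rules were chosen with earlier results of these data known. Alternatives covered the offset, the transformation, missing values, centring, the spread estimate, a replicate block, stricter or looser thresholds and each library left out.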

Additional observations from a re-analysis of the deposited data

Results flagged for a closer look

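In 3 of 52 sets of values (13 windows in 4 groups) a single library lay far from the rest of its group by Dixon's criterion, which chance alone gives in about 1 of 20 sets. Muc5b window 1 was at 60.7% in PM replicate 1, while the other 6 PM libraries ranged from 65.4 to 66.6%. Without that library the fall after OVA in PM offspring was the largest of the fits without 1 library, at -11.8 points. Muc5ac window 2 was at 82.1% in Sham-OVA replicate 7, against 78.0 to 79.8% in the other Sham-OVA libraries, and leaving it out gave -3.80 points in place of -3.34. Scgb1a1 was at 67.2% in PM-OVA replicate 5, against 72.2 to 75.4% in the other PM-OVA libraries. Without that library the difference in PM offspring was 1.66 points in place of 0.839, still without a call.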

How the results depend on the processing

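Under the other settings tried, the counts of called windows over the 40 members and over the secretory list stayed within 1.5 times the values reported, apart from those given here. At an adjusted p under 0.000001, the limit that the study used with its own test, the members had 0 called windows for OVA in Sham and 1 for OVA in PM. The secretory list had 2 and 1. With a DMR limit of 5 points in place of 10, the members had 1 and 2 DMRs and the secretory list 10 and 5. Without PM-OVA replicates 7 and 8 the members had 0 DMRs for OVA in PM. With 1 library left out at a time, member calls ranged from 10 (without Sham replicate 6) to 18 for OVA in Sham and from 21 to 25 for OVA in PM, with 0 and 1 DMRs throughout, and the secretory list had 0 to 1 DMRs for OVA in Sham (1 without Sham replicate 4 or Sham-OVA replicate 7). The difference of Agr2 window 1 after OVA, near 0, changed sign with centred libraries, to 0.38 points for Sham and 0.361 points for PM offspring, and in Sham offspring ranged from -0.749 to 0.671 points with 1 library left out. Among single genes, centring moved the lower calls of Clca1 from 2 to 1, of Muc5b from 7 to 5, of Bpifb1 from 5 to 4 and of Spdef from 1 to 0 for OVA in PM. For OVA in Sham it moved those of Muc5b from 7 to 4, of Muc5ac from 5 to 3 and of Bpifb1 from 3 to 2. A fit of Sham and Sham-OVA alone gave 5 for Muc5b, 3 for Muc5ac and 2 for Bpifb1. The difference of Clca1 window 1 in PM offspring became 0.546 points with centred libraries. None of these sign changes passed the test. Centring evens out rises and falls over all windows largely by construction. It turned the share of higher calls over all windows from 37.3% to 50.2% for OVA in Sham and from 21% to 51.6% for OVA in PM. Over the members that share went from 5.88% to 28.6% and from 4.00% to 9.52%. Of 268 values of single windows under these settings, 244 kept direction and side of the threshold, 18 lost a call, 3 gained one and 3 changed sign. The cause was not tested.

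Replicate numbers of the titles are shared by the groups. Libraries with the same title number had a mean r of 0.0188 between their deviations (42 pairs, 3 above 0.1). In the 273 other pairs it was -0.00287, with 4 above 0.1, and libraries were not taken as pairs. Library names number some Sham-OVA and PM-OVA libraries differently from the titles, and pairing by those numbers was not checked. With the replicate block the members had 15 called windows for OVA in Sham (37.5%, against 36% of all windows) and 21 for OVA in PM (52.5%, against 41.8%). Muc5b then had 6 lower windows in place of 7 in both kinds of offspring, and Bpifb1 had 2 in place of 3 in Sham offspring. The calls of Spdef window 1 (limma adjusted p = 0.119) and window 2 were among those lost in PM offspring. Percentages without counts leave the depth of each window unknown, so that a window with few reads cannot be told from a deep one, and the spread between libraries sets the precision.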
